A study of Homo sapiens with 18 samples.

Results

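RELA occupancy after cotreatment with IL-1β and budesonide was described at 11571 sites of 400 bp in A549 cells, an established human lung carcinoma line. The members were chosen by their labels alone, as every value of the deposited table given for the RELA ChIP and the IL-1β-plus-budesonide treatment. They make up 11571 of the 46284 values in the table, which holds 4 values for each site. The other 3 are RELA with IL-1β alone, GR with IL-1β-plus-budesonide and GR with budesonide alone. Cells were treated for 1 h with IL-1β (1 ng/ml) plus budesonide (300 nM), with IL-1β alone, with budesonide alone, or were not stimulated (NS). Each of these 4 conditions had 2 RELA libraries and 2 GR libraries, with 2 input libraries beside them, 18 samples in all. All groups are the same single tumour line, whose identity could not be checked against marker genes because no expression was measured in these samples.

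NF-κB is held in the cytoplasm of resting cells by IκB proteins. Cytokines such as IL-1β trigger the destruction of IκB, and dimers that contain RELA, its main transactivating subunit, enter the nucleus and bind κB elements near inflammatory and survival genes. Budesonide is an inhaled glucocorticoid. It activates the glucocorticoid receptor (GR, gene NR3C1), which binds glucocorticoid response elements built from inverted repeats with a short spacer. In airway epithelium NF-κB drives chemokine and cytokine output, and glucocorticoids restrain much of it, while some protective genes respond to both.

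Each site carries 1 binding intensity for a factor and treatment. The intensity is on a log2 scale, since 2 raised to the low values gave repeated steps. Among the 867 distinct low RELA values, the commonest step occurred in 52 pairs in base 2, against 4 in base e and 2 in base 10. RELA with IL-1β-plus-budesonide and RELA with IL-1β alone held exactly the same intensity at 40 sites, 35 of them at 0 and 5 above it. The intensity was therefore taken as the log2 of a mean over treated and NS libraries together, which is how DiffBind forms its concentration. A site can thus have a high intensity with cotreatment because of signal that NS cells already had, and no NS level was used here. A difference between the cotreated and IL-1β intensities keeps its direction under this reading, but its size understates the difference between the treated libraries. The table holds single values, none of them per library. Depth and replicate spread are therefore unknown, no test was possible, and whether any difference exceeds the spread between replicates cannot be told. An occupancy in fewer cells and a weaker one in all cells cannot be told apart in bulk ChIP.

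Sequences are shown for strong RELA sites that were chosen because a κB element lay near the centre. The presence of the element in them is therefore no result. A κB match here is a full match to the RELA κB consensus on either strand. The GRCh38 sequences below run 5′ to 3′ on the plus strand, with κB matches in capitals. They come from the 5 sites of highest cotreated intensity that hold a match near the centre, leaving out sites high in every row, and from the start of *TNFAIP3*.
*SERPINA6*/*SERPINA2*: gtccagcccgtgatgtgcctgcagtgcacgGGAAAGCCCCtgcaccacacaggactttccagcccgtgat
*FSTL3*: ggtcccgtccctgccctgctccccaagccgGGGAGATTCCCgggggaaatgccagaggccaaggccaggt
*NFKB2*: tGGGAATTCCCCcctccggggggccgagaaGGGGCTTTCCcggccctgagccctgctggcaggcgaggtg
*FBXO21*/*TESC*: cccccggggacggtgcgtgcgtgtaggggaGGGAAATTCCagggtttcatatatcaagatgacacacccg
*EIF5*: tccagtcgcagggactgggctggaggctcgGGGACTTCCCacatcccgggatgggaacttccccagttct
*TNFAIP3*: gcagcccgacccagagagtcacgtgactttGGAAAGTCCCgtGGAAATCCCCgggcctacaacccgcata
These stretches lie at chr14:94346125-94346194, chr19:674721-674790, chr10:102394470-102394539, chr12:117143194-117143263, chr14:103260682-103260751 and chr6:137867162-137867231. The *NFKB2* stretch holds κB matches on both sides of a GC-rich spacer, and the *TNFAIP3* stretch holds adjacent matches on the minus strand.

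RELA intensity after IL-1β-plus-budesonide had a median of 4.37, with the middle 50% of sites between 3.50 and 5.15 and a highest value of 10.47. An intensity of 4, the level used here to call a site occupied, was reached at 7146 sites (61.8% of all sites). With IL-1β alone RELA had a median of 4.26 and reached 4 at 6308 sites (54.5%). GR with IL-1β-plus-budesonide had a median of 4.64 and reached 4 at 7895 sites (68.2%). The cotreated RELA profile was narrower than that with IL-1β alone, with an SD over sites of 1.36 with cotreatment and 1.71 with IL-1β alone. Its lowest 5% of sites lay at or under 1.99, against 1.01 with IL-1β alone, and 77 sites were listed at 0, against 236 with IL-1β alone. At the top the order turned round, since 1070 sites reached 6 with IL-1β-plus-budesonide and 1305 did so with IL-1β alone. The part of scaling between libraries in this was not tested.

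Part of the top of the list was high in every row. Of the 38 sites at or above 8 for cotreated RELA, 20 were also at or above 8 in the other 3 rows, and 19 of these 20 held no κB match within 100 bp of the centre. The strongest of them, chr16:46389530-46389929, had a RELA intensity of 10.47 with IL-1β-plus-budesonide and 10.82 with IL-1β alone, and GR intensities of 10.82 with cotreatment and 11.01 with budesonide alone. It lies 232 kb from the nearest protein-coding start, that of *SHCBP1*. At the 19 sites the cotreated RELA intensity was lower than that with IL-1β alone in every case, by a median of -0.37 (range -0.65 to -0.22). The remaining one of the 20 is at *NFKBIA*. Among the other 18 sites at or above 8 for cotreated RELA, 12 held a κB match.

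Without the sites high in every row, the strongest cotreated RELA sites included ones near *SERPINA6*, *FSTL3* and *NFKB2*. The highest, chr14:94345952-94346351, is intergenic in the serpin cluster, 22.6 kb upstream of *SERPINA6* in the deposited table, where *SERPINA6* encodes the corticosteroid carrier of blood. It had a RELA intensity of 9.97 with IL-1β-plus-budesonide and 8.98 with IL-1β alone, a GR intensity of 8.92 with cotreatment and 2.76 with budesonide alone, and 3 κB matches. The *FSTL3* site, 1.65 kb upstream of a gene for an activin-binding protein, had 9.18 with IL-1β-plus-budesonide and 7.29 with IL-1β alone, also with 3 κB matches. At both, the cotreated RELA and cotreated GR intensities were high together, while GR with budesonide alone was low.

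The *NFKB2* site, at 385 bp downstream of the start of the gene for the p100/p52 subunit, had a RELA intensity of 9.10 with IL-1β-plus-budesonide and 9.28 with IL-1β alone. An intron of *SLC12A7*, a potassium-chloride cotransporter gene, had 9.21 with cotreatment and 9.63 with IL-1β alone, with no κB match. An exon of *FBXO21*, 43.8 kb upstream of *TESC*, had 8.86 with cotreatment and 9.31 with IL-1β alone. The intergenic *EIF5* site, 72.8 kb upstream of the start of that gene, had 8.68 with cotreatment and 8.97 with IL-1β alone. A site in an intron of *TNFAIP2*, a TNF-induced gene, had 8.62 with cotreatment and 8.77 with IL-1β alone. An intron of *CNGB1* had 8.69 with cotreatment and 8.63 with IL-1β alone. Unlike the *SERPINA6* and *FSTL3* sites, the *NFKB2*, *SLC12A7*, *FBXO21*, *EIF5* and *TNFAIP2* sites had cotreated RELA slightly under RELA with IL-1β alone. These differences, from -0.44 to -0.16, were near those of the 19 sites high in every row without a κB match (-0.65 to -0.22). The part of scaling between libraries in them was not tested.

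κB elements became more frequent, and glucocorticoid response elements less frequent, as cotreated RELA intensity increased. Sites were put in 10 bins of equal size by cotreated RELA intensity. In the top bin (5.94 and above) 38.3% held a κB match within 100 bp of the centre, against 2.25% in the lowest bin (up to 2.62). In sequence 2 kb from the sites, 3.37% of the top bin and 1.30% of the lowest bin held a match, and 1.97% of all did. For the NR3C core (ACANNNTGT, either strand), the core of the element that GR and related steroid receptors bind, the shares ran the other way, 14.5% in the top bin and 51.2% in the lowest, with 5.37% of sequence 2 kb away. The sites of the table come from both factors, and the lowest bin for RELA had a median GR intensity of 3.99 with cotreatment and 4.90 with budesonide alone.

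AP-1 elements (TGANTCA), which JUN and FOS proteins bind, were found at 20.0% of the top bin, 15.1% of the lowest and 21.0% of all sites, with 6.40% of sequence 2 kb away. C/EBP (TTGCNNAA) stood at 20.2% of all sites, TEAD (GGAATG) at 17.9% and FOX (TGTTTAC) at 8.81%. For C/EBP the top and lowest bins had 21.0% and 18.7%, and for FOX 7.77% and 10.1%, so neither of these elements followed RELA intensity as the κB element did. Base composition moved with RELA intensity too, with a median GC content of 48.2% in the top bin and 42.0% in the lowest, and its part in the element shares was not tested.

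**Figure D1:**
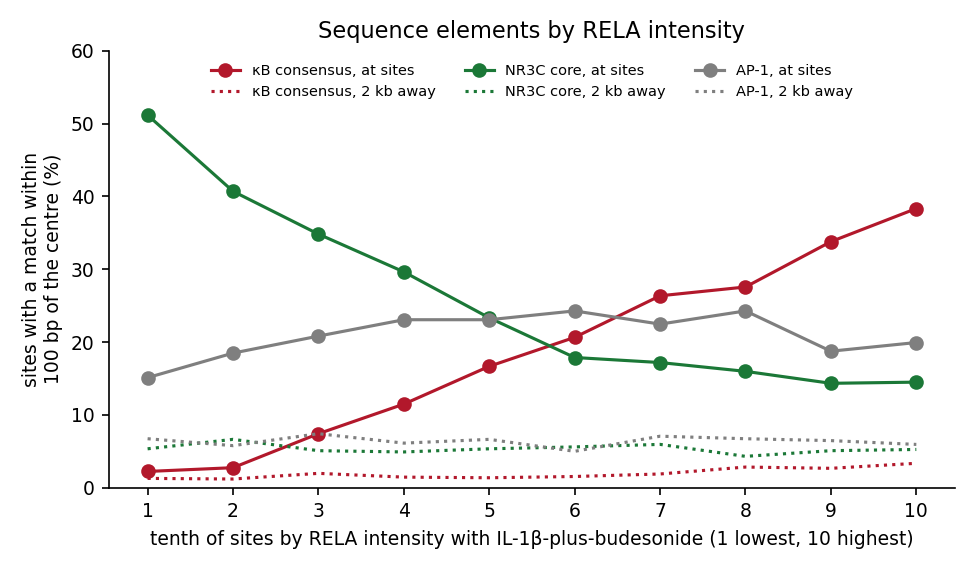
Share of sites (%) with a κB, NR3C or AP-1 match within 100 bp of the centre, for 10 equal bins of the 11571 sites ordered by RELA intensity with IL-1β-plus-budesonide (solid lines), and in sequence 2 kb away (dotted lines). The κB share is 2.25% in the lowest bin and 38.3% in the top bin, and the NR3C share is 51.2% and 14.5%.

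Within the κB sites, number, place and exact letters of the element made smaller differences. Sites with 1 κB match had a median cotreated RELA intensity of 5.04 (1912 sites), those with 2 had 5.17 (229 sites) and those with 3 or more had 5.46 (27 sites), against 4.18 at the 9403 sites without a match. Of the κB sites, 1333 had the nearest match within 25 bp of the centre. These had a median of 5.12, and 347 sites with the nearest match 50 to 100 bp away had 5.01. The shorter distances held the sites with less GR, since the cotreated GR median was 3.65 within 25 bp and 4.86 at 50 to 100 bp.

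The κB elements are shown letter by letter because RELA dimers accept many variants. For this, sites on chromosome 8 and sites whose match overlapped another, which the counts above took as 1, were left out. The remaining 1486 sites had 53 distinct elements, of which 22 occurred at 20 or more sites. The commonest was GGGAAATTCC (156 sites, median cotreated RELA intensity 5.02), followed by GGGAATTTCC (134 sites, 4.92) and GGGACTTTCC (108 sites, 5.38). The median over all 1486 sites was 5.02. Among the elements at 20 or more sites, the highest median was that of GGGATTCCCC (33 sites, 5.61) and the lowest that of GGGAGTTCCC (30 sites, 4.61). GGGACATTCC, at 25 sites, had 64.0% of its sites at or above 4, against 98.6% for GGGGATTTCC at 73 sites. The middle 50% of sites overlapped between these elements, from 4.60 to 6.02 for GGGATTCCCC and from 4.13 to 5.01 for GGGAGTTCCC, so the elements differed in median more than they separated the sites.

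The treatments were then compared within classes of sites by element. Sites with κB and no NR3C core (1910 sites) had a median RELA intensity of 5.08 with IL-1β-plus-budesonide and 5.27 with IL-1β alone. Sites with both elements (258) had 4.94 with cotreatment and 4.35 with IL-1β alone, and sites with the NR3C core and no κB (2746) had 3.62 with cotreatment and 2.86 with IL-1β alone. The 6657 sites with neither had 4.38 with IL-1β-plus-budesonide and 4.39 with IL-1β alone. RELA thus reached 4 with cotreatment at 37.7% of the NR3C sites that lack a full κB match, against 89.7% of sites with κB alone. It did so at 83.3% of sites with both elements, 62.8% of sites with neither and 61.8% of all sites. The share at the NR3C sites was thus under that of all sites.

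**Figure D2:**
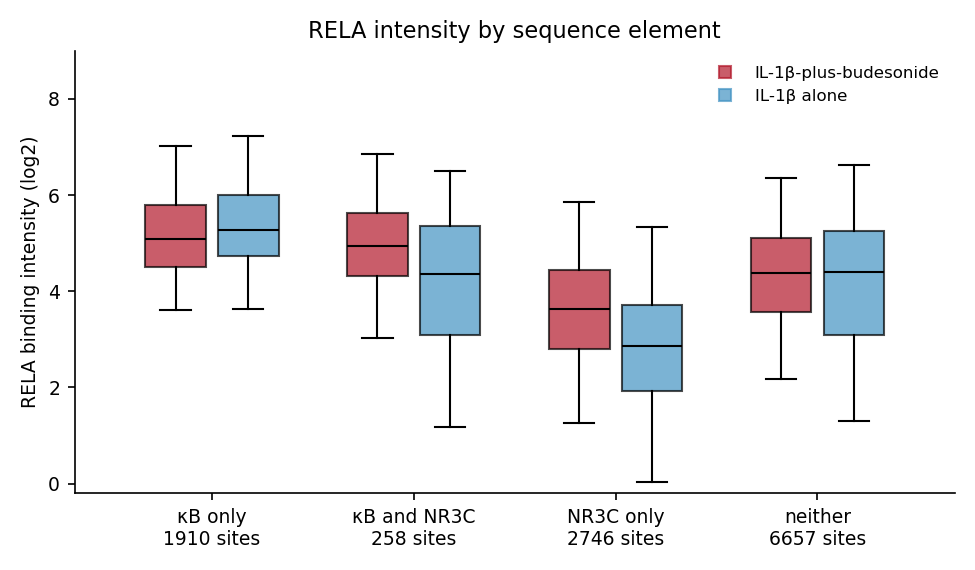
RELA binding intensity (log2) with IL-1β-plus-budesonide (red) and IL-1β alone (blue) for sites with κB only, κB and NR3C, NR3C only or neither element within 100 bp of the centre. Boxes show the middle 50% of sites with the median, and whiskers the 5th to 95th percentile over sites, not replicates. The median with cotreatment lies above that with IL-1β alone in both classes with an NR3C core, 4.94 with cotreatment against 4.35 with IL-1β alone, and 3.62 with cotreatment against 2.86 with IL-1β alone.

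RELA with IL-1β-plus-budesonide was compared with RELA with IL-1β alone at the 11293 sites above 0 in both. The cotreated intensity was higher by 1 or more at 2303 sites (20.4%) and lower by 1 or more at 851 (7.54%). The median difference was 0.06. At the 5448 sites at or above 4 with both treatments it was -0.23, beside the -0.37 of the 19 sites high in every row that hold no κB match, and the part of scaling between libraries in this was not tested. With differences centred on -0.23, 2965 sites were higher and 454 lower. Centring on a negative value raises every difference, so it could only widen the excess of higher over lower sites and is no check on it. Among sites at or above 4 with either treatment, 1389 were higher and 728 lower, with a median difference of -0.13.

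Most of the sites where cotreated RELA was higher by 1 or more had GR. Their median RELA intensity was 4.27 with IL-1β-plus-budesonide and 2.47 with IL-1β alone. Their median GR intensity was 5.46 with cotreatment and 5.42 with budesonide alone. GR with cotreatment reached 4 at 92.1% of them, against 31.5% of the sites where cotreated RELA was lower by 1 or more and 68.5% of the 11293 sites. The NR3C core was present at 43.2% of the higher sites and 10.5% of the lower ones, against 25.2% of the 11293 sites. κB was at 9.60% of the higher and 21.4% of the lower sites, against 19.2% of the 11293 and 21.6% of those that differed by less than 1, so the lower sites were near the share of the rest. AP-1 was at 18.2% of the higher and 30.2% of the lower sites, against 21.3% of the 11293.

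Of the 7 sites with an NR3C core among the 10 largest positive differences, the sequences of 6 are shown, since the site near *DENND3*, which has the largest difference, is given by its values only. They show the NR3C core, and of these 6 sites *ABHD2* alone also held a κB match within 100 bp. The stretches run 5′ to 3′ on the plus strand of GRCh38, with NR3C matches in capitals.
*ARRDC2*: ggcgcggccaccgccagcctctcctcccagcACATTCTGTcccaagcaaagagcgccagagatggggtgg
*RTTN*: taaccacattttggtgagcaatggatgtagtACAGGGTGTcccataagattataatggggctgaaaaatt
*DDIT4*: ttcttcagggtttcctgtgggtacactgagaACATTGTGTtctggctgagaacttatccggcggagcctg
*JADE1*: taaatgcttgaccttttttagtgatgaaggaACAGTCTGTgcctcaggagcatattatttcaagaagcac
*ABHD2*: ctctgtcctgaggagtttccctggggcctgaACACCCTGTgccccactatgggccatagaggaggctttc
*NAMPT*: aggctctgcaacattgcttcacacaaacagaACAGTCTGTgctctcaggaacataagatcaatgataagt
Their positions are chr19:18020443-18020512, chr18:70245223-70245292, chr10:72248954-72249023, chr4:128660455-128660524, chr15:89098419-89098488 and chr7:106418319-106418388. The labels name the nearest protein-coding start, which for *JADE1* is 149 kb and for *NAMPT* 132 kb from the site. Of the 10 sites with the largest positive difference, 7 held an NR3C core and 2 a κB match. Among the 7994 sites they were taken from, 16.5% held an NR3C core and 26.2% a κB match, and among all sites 26.0% and 18.7%. A κB count of 2 in 10 sites is too small to be read against these shares.

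The largest positive difference was at chr8:141111352-141111751, 5.73 kb upstream of *DENND3*, a gene for a vesicle transport regulator, where the RELA intensity was 7.18 with IL-1β-plus-budesonide and 1.64 with IL-1β alone. An intergenic site 19.4 kb downstream of the start of *ARRDC2*, an arrestin-domain gene, had 6.05 with IL-1β-plus-budesonide and 0.79 with IL-1β alone. A site in an intron of *GRAMD4* had 6.33 with cotreatment and 1.20 with IL-1β alone, and a site 24.9 kb upstream of *DDIT4*, a glucocorticoid-inducible inhibitor of mTOR signalling, had 6.02 with cotreatment and 1.26 with IL-1β alone. At these 4 sites GR with IL-1β-plus-budesonide was between 8.11 and 8.95. GR with budesonide alone was 8.39 at *ARRDC2*, 8.08 at *GRAMD4* and 8.93 at *DDIT4*, but 4.35 at *DENND3*.

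The other 6 of these 10 sites spanned RELA intensities of 5.08 to 6.44 with IL-1β-plus-budesonide, and 0.05 to 1.72 with IL-1β alone. They include an exon of *DDR1*, a collagen receptor gene (5.08 with IL-1β-plus-budesonide and 0.25 with IL-1β alone). The site in an intron of *DIP2C* had 5.76 with cotreatment and 0.99 with IL-1β alone, with GR at 6.08 with cotreatment and 2.14 with budesonide alone. The *DENND3* and *DIP2C* sites thus differed from the *ARRDC2*, *GRAMD4* and *DDIT4* sites in having GR intensities more than 3 higher with cotreatment than with budesonide alone. Over all 10 sites the median RELA intensities were 5.91 with cotreatment and 1.04 with IL-1β alone.

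The 10 largest negative differences were at weaker sites, from -2.64 to -3.92. RELA intensity there ranged from 0.27 to 2.49 with IL-1β-plus-budesonide, and from 4.07 to 5.18 with IL-1β alone. The largest lay in an intron of *LINC02273*, with 0.81 with IL-1β-plus-budesonide and 4.73 with IL-1β alone, followed by an intron of *BASP1* with 0.27 with cotreatment and 4.07 with IL-1β alone. Of the 10 sites, 5 held an AP-1 match, 1 a κB match (41.9 kb from the start of *CAMK2N1*) and 0 an NR3C core. Among the 7994 sites they were taken from these shares were 22.9%, 26.2% and 16.5%, and counts of 0 or 1 in 10 sites are too small to be read against the last 2. Cotreated GR at these sites was between 0 and 4.34.

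Sites that crossed the level of 4 are another cut of the same RELA values, so their division is no separate support. RELA reached 4 only with IL-1β-plus-budesonide at 1698 sites, where its medians were 4.49 with cotreatment and 3.29 with IL-1β alone, and 38.2% of these sites held an NR3C core. It reached 4 only with IL-1β alone at 860 sites, with medians of 3.66 with cotreatment and 4.57 with IL-1β alone, and 8.02% held an NR3C core. κB matches were at 10.6% of the first set, 19.7% of the second and 32.1% of the 5448 sites at or above 4 with both treatments. Over all sites 26.0% held an NR3C core and 18.7% a κB match, so the κB share of the second set was near that of all sites. At 12 sites RELA was at or above 4 with cotreatment and listed at 0 with IL-1β alone.

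RELA and GR were then set side by side after cotreatment. Both reached 4 at 5163 sites, which is 72.3% of the occupied RELA sites and 65.4% of the occupied GR sites. Over all sites GR reached 4 at 68.2% and RELA at 61.8%, so the overlap was near those shares. RELA alone reached 4 at 1983 sites, GR alone at 2732, and neither at 1693. Where both did, the median RELA intensity was 5.05 with IL-1β-plus-budesonide and 4.80 with IL-1β alone. Where RELA did without GR, it was 4.75 with IL-1β-plus-budesonide and 5.17 with IL-1β alone. κB elements were at 48.5% of the RELA-only sites, 18.8% of the shared sites and 2.31% of the GR-only sites, and NR3C cores at 5.50% of the RELA-only, 22.1% of the shared and 47.0% of the GR-only sites.

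Cotreated RELA was highest at the sites with most cotreated GR, with or without a full κB match. A site without a full match can still hold a κB element with 1 mismatch. Sites were put in 5 bins of equal size by cotreated GR intensity. Among sites without a κB match, the median RELA intensity in the lowest bin was 3.77 with IL-1β-plus-budesonide and 4.54 with IL-1β alone. In the top bin it was 5.16 with cotreatment and 4.08 with IL-1β alone. Among κB sites, the lowest bin had 4.60 with IL-1β-plus-budesonide and 5.06 with IL-1β alone, and the top bin had 6.13 with cotreatment and 5.42 with IL-1β alone. The median difference between treatments was thus negative in the lowest bin (-0.51 without κB, -0.48 with κB). It was positive in the top bin (0.83 without κB, 0.68 with κB). The table holds sites of both factors, so a site with little GR may be there because RELA bound it. The part of this in the differences between bins was not tested.

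Over the 11571 sites cotreated RELA and cotreated GR had a Pearson r of 0.37 and a Spearman rho of 0.34, while cotreated RELA and GR with budesonide alone had -0.09 and -0.14. Cotreated RELA and RELA with IL-1β alone had 0.79 and 0.78, and they share their NS libraries if the intensity is the mean it was taken to be. The difference between cotreated RELA and RELA with IL-1β alone had an r of 0.48 and a rho of 0.49 with cotreated GR over 11293 sites, and 0.45 and 0.48 with GR after budesonide alone. These values describe sites, not replicates. The sites share libraries and come from both factors, and base composition moved with intensity, so no p is given.

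**Figure D3:**
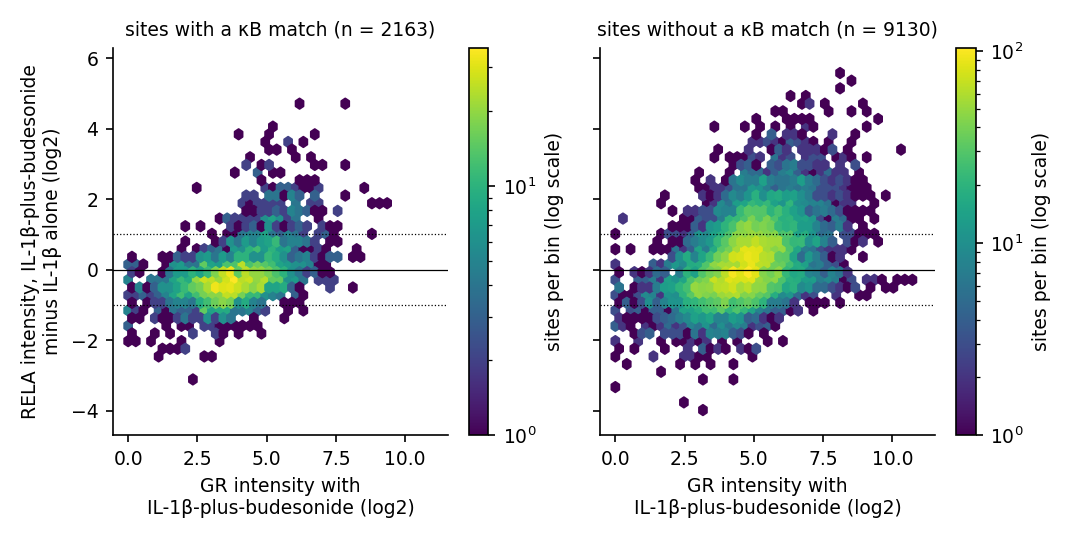
Difference in RELA intensity, IL-1β-plus-budesonide minus IL-1β alone (log2), against GR intensity with IL-1β-plus-budesonide (log2), for sites with a κB match (left) and without one (right). Colour gives the number of sites per bin on a log scale, and the dotted lines mark 1 and -1. In both panels the cloud tilts upward. Medians are 0.68 and 0.83 in the top of 5 bins by GR, and -0.48 and -0.51 in the lowest. The sites come from both factors, and the part of this in the tilt was not tested.

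Cotreated RELA was stronger near gene starts. The 988 sites within 1 kb of an annotated start had a median of 4.96 and 75.6% at or above 4. The 3494 sites at 1 to 10 kb had 4.44, the 6526 sites at 10 to 100 kb had 4.27, and the 563 sites beyond 100 kb had 4.16 and 54.5%. RELA with IL-1β alone had 4.99 within 1 kb and 4.08 beyond 100 kb, so the gradient was there without budesonide too. Within 1 kb 26.4% of sites held a κB match, and beyond 100 kb 13.3%. By position, 6832 sites lay in introns (median 4.31), 3934 between genes (4.44) and 805 in exons (4.57). Sites within 1 kb of a start made up 19.2% of the top bin and 4.75% of the lowest.

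Chemokine genes, whose products draw leukocytes into the airway, had the highest median of the 10 gene lists. A site was assigned to a gene when it lay in the gene or within 50 kb of it. All 12 chemokine genes had an occupied site, where 6122 of 20033 protein-coding genes did. Of the 33 chemokine sites, 29 reached 4 (87.9%), against 61.8% of all sites. Their median RELA intensity was 6.08 with IL-1β-plus-budesonide and 6.31 with IL-1β alone. Neighbouring genes share sites, among them *CXCL1* with *CXCL6*, *CXCL3* with *CXCL5* and *CXCL10* with *CXCL11*.

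At *CXCL8*, the gene of the neutrophil chemoattractant interleukin-8, the site 41 bp upstream of the start had 7.82 with IL-1β-plus-budesonide and 7.77 with IL-1β alone. The site 5.76 kb upstream had 7.11 with cotreatment and 6.71 with IL-1β alone, and the site 14.4 kb upstream had 5.51 with cotreatment and 6.75 with IL-1β alone. *CCL20*, a ligand of CCR6, had 7.79 with IL-1β-plus-budesonide and 8.08 with IL-1β alone at 8.01 kb downstream of its start. *CCL2*, a monocyte attractant, had 7.72 with cotreatment and 7.92 with IL-1β alone at 2.62 kb upstream. The *CXCL1* site at the start had 7.16 with cotreatment and 7.23 with IL-1β alone. At the strongest site of each of these 4 genes the treatments differed by under 0.5. The weaker *CXCL8* site 14.4 kb upstream differed by -1.24. The lowest of the genes' strongest sites was that of *CCL5*, a T cell attractant, with 5.18 with cotreatment and 5.48 with IL-1β alone.

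NF-κB subunit and feedback genes came next, with medians of 5.60 with IL-1β-plus-budesonide and 6.11 with IL-1β alone. Of their 57 sites, 49 were at or above 4 (86.0%), against 61.8% of all sites. Of the subunits, *NFKB1* had 7.15 with cotreatment and 7.80 with IL-1β alone at its start, *REL* 7.04 with cotreatment and 7.49 with IL-1β alone, and *RELB* 6.60 with cotreatment and 7.03 with IL-1β alone. *NFKB2* was given above, and *RELA* itself had 0 sites. Of the inhibitors, *NFKBIA* (IκBα) had 8.70 with cotreatment and 8.38 with IL-1β alone at 0.72 kb downstream of its start, where GR was 8.44 with cotreatment and 9.47 with budesonide alone. *NFKBIB* (IκBβ) had 7.19 with cotreatment and 7.78 with IL-1β alone. *TNFAIP3*, which encodes the ubiquitin-editing enzyme A20, had 7.24 with cotreatment and 7.63 with IL-1β alone at its start, and *TNIP1*, its binding partner, had 7.33 with cotreatment and 7.22 with IL-1β alone. Of these, *NFKBIA* and *TNIP1* alone had a higher intensity with cotreatment, in both cases by under 0.5. *TNIP3* had 0 sites, and neither of the 2 *TRAF1* sites reached 4.

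The stretches around the κB elements of *NFKBIA* and *NFKB1*, genes for an inhibitor and a partner of RELA, are shown with the κB match in capitals.
*NFKBIA*: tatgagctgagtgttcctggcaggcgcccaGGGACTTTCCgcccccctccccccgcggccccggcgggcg
*NFKB1*: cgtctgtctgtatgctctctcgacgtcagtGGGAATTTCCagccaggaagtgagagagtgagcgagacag
They are chr14:35403933-35404002 and chr4:102501280-102501349, plus strand, 5′ to 3′. Their 10 matched letters are 2 of the 3 commonest elements given above.

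Among cytokines, adhesion molecules and inflammatory enzymes, 49 of 59 sites reached 4 (83.1%), against 61.8% of all sites. The medians were 5.33 with IL-1β-plus-budesonide and 5.51 with IL-1β alone. *C3*, the central complement component, had 7.91 with cotreatment and 7.75 with IL-1β alone at 9.81 kb from its start, and *PTGS2*, the inducible cyclooxygenase, had 7.87 with cotreatment and 8.80 with IL-1β alone at 35.1 kb upstream. *ICAM1*, the leukocyte adhesion molecule, had 7.03 with cotreatment and 7.36 with IL-1β alone at 1.29 kb upstream. *LIF*, a gp130 cytokine, had 12 sites, 11 of them at or above 4. *CSF1*, the macrophage growth factor, differed from these, with 6.42 with IL-1β-plus-budesonide and 4.25 with IL-1β alone at 17.9 kb downstream of its start. *SAA1*, an acute phase gene that glucocorticoids and cytokines induce together, had 4.85 with cotreatment and 3.52 with IL-1β alone, with both a κB and an NR3C match. *IL11*, *IL33* and *VCAM1* had 0 sites.

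Of the cell survival genes, all 10 had an occupied site, where 6122 of 20033 protein-coding genes did. Of their 48 sites, 38 reached 4 (79.2%), against 61.8% of all sites. Of the 47 sites above 0 in both, 12 were higher with cotreatment by 1 or more and 10 lower, where 20.4% of all sites were higher and 7.54% lower. *BIRC3*, which encodes an inhibitor of apoptosis, had 8 sites. At its start RELA was 7.55 with IL-1β-plus-budesonide and 7.77 with IL-1β alone. At 11.0 kb upstream it was 6.49 with cotreatment and 3.98 with IL-1β alone, at 16.2 kb upstream 5.68 with cotreatment and 1.78 with IL-1β alone, and at 66.6 kb downstream of the start 4.81 with cotreatment and 2.40 with IL-1β alone. At 28.6 kb downstream, beside *BIRC2*, it was 5.15 with cotreatment and 5.79 with IL-1β alone. The sites with more cotreated RELA at 11.0 and 16.2 kb upstream and 66.6 kb downstream had cotreated GR intensities of 7.90, 6.60 and 5.64. The site at 28.6 kb had 4.26. The start had 6.86 without more RELA, so the RELA difference did not follow GR at every site.

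*CFLAR*, the gene of the caspase-8 inhibitor FLIP, had 8 sites, all at or above 4 with cotreatment. The strongest, 0.98 kb downstream of the start, had 6.20 with IL-1β-plus-budesonide and 6.53 with IL-1β alone. The site at 10.8 kb had 5.43 with cotreatment and 4.12 with IL-1β alone, with GR at 7.27 with cotreatment and 5.58 with budesonide alone. *TNFAIP8*, an apoptosis regulator, had sites on both sides, with 3 higher by 1 or more and 4 lower of 11, too few to set against the 20.4% and 7.54% of all sites. Its strongest, 171 kb downstream of the start, had 7.08 with cotreatment and 4.94 with IL-1β alone. *IER3*, an immediate early gene, had 0 higher and 3 lower of 4, likewise too few.

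The brakes on inflammation had 48 of 51 sites at or above 4 (94.1%), against 61.8% of all sites. The medians were 5.41 with IL-1β-plus-budesonide and 5.60 with IL-1β alone, and the median cotreated GR intensity was 5.67. *ZFP36*, whose product tristetraprolin destabilises cytokine mRNA, had 8.30 with cotreatment and 8.72 with IL-1β alone at 3.94 kb upstream, and 7.10 with cotreatment and 6.21 with IL-1β alone at 2.89 kb downstream. At the downstream site GR was 9.54 with cotreatment and 10.14 with budesonide alone. *IRAK3*, an inhibitor of IL-1 receptor signalling, had 7.39 with IL-1β-plus-budesonide and 4.98 with IL-1β alone at its start, where GR was 7.78 with cotreatment and 5.38 with budesonide alone. *DUSP1*, the MAP kinase phosphatase, had 7.08 with cotreatment and 5.85 with IL-1β alone at 1.32 kb upstream. *IRAK3* and *DUSP1* thus had a higher RELA intensity at their strongest site with cotreatment. The difference at the strongest *ZFP36* site was -0.42. It lay within the range of the 19 sites high in every row that hold no κB match (-0.65 to -0.22). The part of scaling between libraries in it was not tested, and whether it reflects less RELA cannot be told. *TNFAIP3*, *TNIP1* and *NFKBIA* are in this list and in that of NF-κB genes.

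Of the inflammation-responsive transcription factors, 9 of 13 had a site, where 8211 of 20033 protein-coding genes did. Of their 28 sites, 27 reached 4 (96.4%), against 61.8% of all sites. *IRF1* had 7.24 with IL-1β-plus-budesonide and 7.52 with IL-1β alone, *JUNB* 6.89 with cotreatment and 7.16 with IL-1β alone with 3 κB matches, and *ELF3*, an epithelial ETS factor, 6.71 with cotreatment and 6.74 with IL-1β alone. *KLF6* differed, with 6.20 with cotreatment and 5.24 with IL-1β alone at 25.1 kb upstream, where GR was 7.63 with cotreatment. *JUN*, *ATF3*, *EGR1* and *IRF7* had 0 sites.

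The glucocorticoid target genes had a share of occupied sites near that of all sites, and a larger difference between treatments. Of their 78 sites, 50 reached 4 (64.1%), against 61.8% of all sites. The median RELA intensity was 4.55 with IL-1β-plus-budesonide and 3.51 with IL-1β alone. Of the 76 sites above 0 in both, cotreated RELA was higher by 1 or more at 39 and lower at 1, against 20.4% and 7.54% of all sites. NR3C cores were at 44.9% of these sites and κB at 8.97%, against 26.0% and 18.7% of all sites. The median cotreated GR intensity was 5.82.

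*ZBTB16*, a zinc finger repressor gene strongly induced by glucocorticoids, had 9 sites. The site at 120 kb downstream of the start had 6.20 with IL-1β-plus-budesonide and 1.70 with IL-1β alone, with GR at 9.14 with cotreatment and 9.21 with budesonide alone. The site at 236 kb had 6.29 with cotreatment and 6.68 with IL-1β alone, and the site at 245 kb had 5.55 with cotreatment and 5.78 with IL-1β alone. *FKBP5*, which encodes a cochaperone of GR, had 5.78 with IL-1β-plus-budesonide and 2.51 with IL-1β alone at 5.90 kb downstream, and 5.51 with cotreatment and 3.71 with IL-1β alone at 3.45 kb upstream. *ANGPTL4*, a lipase inhibitor gene, had 5.17 with cotreatment and 1.79 with IL-1β alone at 7.43 kb upstream. *TFCP2L1*, a transcription factor gene, had 5 sites. The 4 above 0 with both treatments were all higher by 1 or more with cotreatment, and the other was listed at 0 with IL-1β alone.

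The elements at the sites of *ZBTB16*, *FKBP5* and *ANGPTL4* where the difference was largest within each gene are shown with the NR3C core in capitals, from the plus strand of GRCh38.
*ZBTB16*: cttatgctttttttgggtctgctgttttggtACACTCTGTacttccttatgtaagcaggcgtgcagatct
*FKBP5*: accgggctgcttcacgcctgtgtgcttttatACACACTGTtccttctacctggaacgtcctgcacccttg
*ANGPTL4*: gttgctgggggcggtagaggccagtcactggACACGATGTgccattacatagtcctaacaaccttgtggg
They lie at chr11:114179476-114179545, chr6:35722653-35722722 and chr19:8355850-8355919. None of these 3 sites held a κB match within 100 bp of the centre.

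Sites of a gene could differ from each other. *DUSP1*, also among the brakes, had 5.18 with cotreatment and 1.38 with IL-1β alone at 4.58 kb upstream, with an NR3C core and no κB match, and was lower by under 1 with cotreatment at 3 of its 7 sites. *MT2A*, a metallothionein gene, had 6.77 with IL-1β-plus-budesonide and 4.66 with IL-1β alone at 1.24 kb upstream. *KLF9*, a Krüppel-like repressor gene, had 6.37 with cotreatment and 5.32 with IL-1β alone at 5.50 kb upstream. *PER1*, a circadian repressor gene, had 5.09 with cotreatment and 4.10 with IL-1β alone at 2.04 kb downstream, where GR was 8.97 with cotreatment. At the *SCNN1A* site 8.98 kb upstream, RELA had 6.67 with cotreatment and 6.64 with IL-1β alone, beside a GR intensity of 4.27 with cotreatment. At 4.57 kb downstream of the *SCNN1A* start it had 4.34 with cotreatment and 2.04 with IL-1β alone, and at 1.41 kb 5.58 with cotreatment and 4.31 with IL-1β alone. *GLUL*, *CDKN1C* and *FAM107A* had 0 sites.

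**Figure D4:**
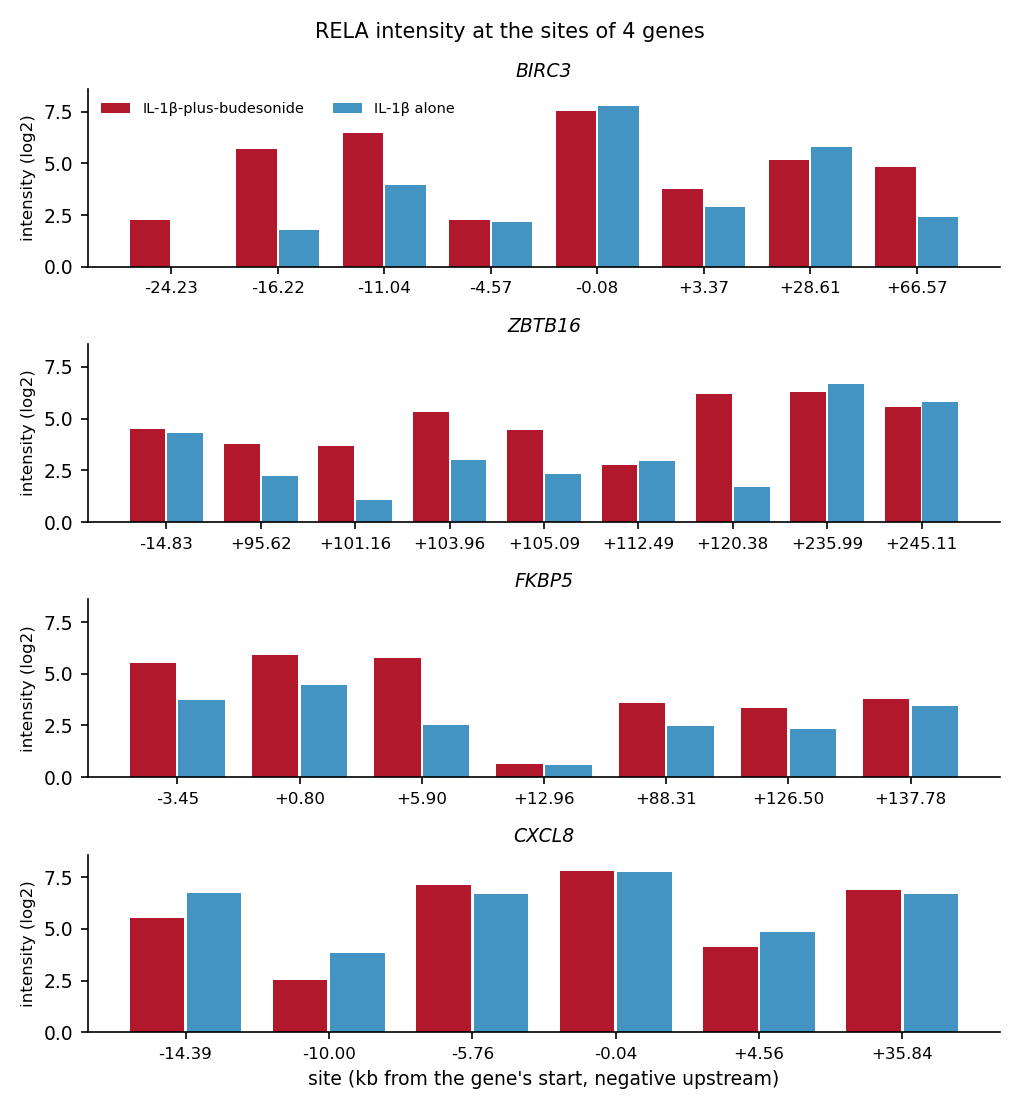
RELA binding intensity (log2, bars from 0) with IL-1β-plus-budesonide (red) and IL-1β alone (blue) at each site of *BIRC3*, *ZBTB16*, *FKBP5* and *CXCL8*, labelled by distance from the gene's start in kb. The bars are single values with no replicate error, and the largest gaps are at 120 kb in *ZBTB16* (6.20 with cotreatment and 1.70 with IL-1β alone) and 16.2 kb upstream of *BIRC3* (5.68 with cotreatment and 1.78 with IL-1β alone).

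Lung epithelial genes had 21 of 28 sites at or above 4 (75%, against 61.8% of all sites), an excess that was not there at a level of 5, with medians of 4.69 with IL-1β-plus-budesonide and 4.29 with IL-1β alone. *MUC5AC*, the gel-forming mucin gene, had 6.51 with cotreatment and 7.32 with IL-1β alone at 5.46 kb upstream with 2 κB matches. *KRT8* and *KRT18*, neighbouring keratin genes, share a site with 6.49 with cotreatment and 3.84 with IL-1β alone, and *SFTPB*, a surfactant protein gene, had 6.32 with cotreatment and 3.90 with IL-1β alone at 44.6 kb upstream. *NKX2-1*, *SFTPA1* and *FOXA2* had 0 sites. Heat shock genes had 6 sites near 4 of 10 genes, 3 of them at or above 4, and housekeeping genes had 4 sites near 3 of 8 genes, 1 of them at or above 4 (near *ACTB*). Both sets are too small for their shares to be read.

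The genes with the most occupied cotreated RELA sites included several long ones. Of 20033 protein-coding genes, 8211 had a site in the gene or within 50 kb, and 6122 had one at or above 4. *PDE4D*, a cyclic AMP phosphodiesterase gene of 1553 kb, had 38 sites, 26 of them at or above 4 with cotreatment and 23 with IL-1β alone. Over all sites 61.8% reached 4 with cotreatment and 54.5% with IL-1β alone. The ranking is by count, so genes with many sites can come first. *RAD51B*, a DNA repair gene, had 23 sites, 19 of them occupied with cotreatment and 13 with IL-1β alone. *THSD4* had 20 sites, 16 of them occupied with cotreatment and 10 with IL-1β alone. *SPIDR* had 19 sites, 15 of them occupied with cotreatment and 9 with IL-1β alone. *SMAD3*, the TGF-β signal transducer, had 15 sites within a shorter span, 14 of them occupied with cotreatment and 12 with IL-1β alone. Its strongest site was at 8.14. *VMP1*, an autophagy gene, had 16 sites, 14 of them occupied with cotreatment and 13 with IL-1β alone. ENSG00000258790, *GLIS3*, *CUX1* and *CCDC200* had 12, 16, 13 and 12 sites. Of these, 12 each were occupied with cotreatment, and 9, 9, 9 and 12 with IL-1β alone. *DLGAP1*, of 959 kb, had 15 sites, also with 12 occupied with cotreatment, and 11 with IL-1β alone.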

How the data were processed

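GR and RELA were measured by ChIP-seq in A549 cells, 2 libraries per condition. The authors' processing notes name bcl2fastq, FastQC 0.10.1, Bowtie2 2.4.4, SAMtools, MACS2 2.2.7.1 and DiffBind 3.2, with GRCh38 (hg38). The deposited table gives 1 log2 binding intensity per site, factor and treatment, and a distance to the nearest gene start. How sites were merged is not stated. Its columns of fold over NS, FDR, significance, behaviour and trend hold the authors' own comparisons and enter no result. The fold was read once while working out what the intensity averages. No fold or test against NS is given. Without values per library, depth and precision are unknown and nothing was tested.

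All 11571 sites lay inside GRCh38 chromosomes. Sites were placed on GENCODE 44, whose nearest protein-coding start had the deposited gene name at 71.7% of sites, and 217 sites had no deposited name. Elements were searched on both strands, and κB matches starting less than 10 bp apart were counted as 1. Sequence 2 kb away was the control. The search was tested on simulated data. Sites at 0 in either RELA row had no difference.

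The named sites are the 10 of highest cotreated RELA intensity, the 10 largest differences each way among sites at or above 4 in at least 1 row and above 0 in both, the 10 genes with the most occupied sites, and members of 10 gene lists. One of these sites is not reported here. Several of the 10 highest are described together as high in every row, and the next strongest sites and some list members were named after their values were seen. The members and lists were chosen with earlier results of these data known. Tables were handled with pandas 2.3.3 and NumPy 2.4.6 in Python 3.11.15. Sequence was read with pysam 0.24.0, correlations came from pandas with SciPy 1.17.1, and plots were drawn in Matplotlib 3.10.9. Other thresholds, windows, distances and scalings were tried.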

Additional observations from a re-analysis of the deposited data

How the results depend on the processing

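No paired analysis was possible because the table holds no values per library, and for the same reason no replicate could be left out. With an occupied level of 5 or 6 in place of 4, 3410 or 1070 sites were occupied by cotreated RELA, and sites with both factors numbered 8637 at 3 and 1965 at 5. With a difference of 0.5 in place of 1, 3840 sites were higher and 2665 lower, and with 2 these were 673 and 62. Limited to sites at or above 4 with either treatment, 1389 were higher and 728 lower, and the median difference changed sign to -0.13. Centring left 454 sites lower and gave a median of 0.29. The κB share of the top of 10 bins was 32.0% within 50 bp, 42.7% within 200 bp and 73.0% with 1 mismatch, and that of the lowest bin was 1.21% within 50 bp and 19.4% with 1 mismatch. The NR3C share was 10.0% within 50 bp and 18.0% within 200 bp in the top bin, and 46.0% within 50 bp in the lowest. The median within 1 kb of a start exceeded that beyond 100 kb by 0.80, and by 1.02 with protein-coding starts and 1.11 with deposited distances. Of the 10 lists, 8 had a larger occupied share than all sites, and 7 with deposited gene names. The excess share of glucocorticoid targets turned from 2.34 percentage points to -2.57 within 10 kb, -0.22 within 100 kb and -5.24 with deposited names. That of lung epithelial genes was -0.90 at a level of 5, that of heat shock genes was 13.2 within 10 kb and 3.86 at a level of 5, and that of housekeeping genes was 8.24 within 100 kb. The cause of these changes was not tested. Leaving out the 20 sites high in every row, chosen after seeing the data, moved none of the values it was tried on by more than their limits.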
